A study of Mus musculus with 9 samples.

Results

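The syndecans and glypicans are the families of cell surface heparan sulfate proteoglycans of the mouse. All 10 genes whose symbol was *Sdc1* to *Sdc4* or *Gpc1* to *Gpc6* were taken by name from the 24341 genes listed for each sample. These members were chosen with earlier results of these data known. Their RNA was compared in 9 RNA-Seq libraries of mouse embryonic fibroblasts (MEFs, connective tissue cells cultured from embryos) on the C57BL/6 strain. There were 3 libraries each of WT, *Atm-/-* and *Sirt6-/-* genotype, grown in DMEM with 10% FBS and with no drug or dose in the labels. ATM is a kinase that responds to DNA breaks, and SIRT6 is a deacylase that acts on chromatin. The protocol text of the labels also lists P53-/- and Atm-/-P53-/- mice without tying them to a library. The methods of the study describe immortalized *Atm-/-; p53-/-* MEFs and *Sirt6-/-* MEFs that came from different laboratories, and do not say which cells were sequenced. An effect of genotype therefore cannot be told apart from an effect of the cell line, its source or its p53 status. The age of the embryos, the number of lines behind each genotype, and whether the replicates were separate cultures are not given in the sources used here.

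Heparan sulfate proteoglycans are core proteins that carry long sulfated sugar chains, through which they bind growth factors, morphogens and matrix proteins at the cell surface. Syndecans span the membrane and have a short cytoplasmic tail that binds PDZ proteins and kinases. Glypicans have no tail and are held in the outer leaflet by a GPI anchor. In fibroblasts syndecan-4 is known as a partner of integrins in focal adhesions, and glypican-3 is known for restraining growth of the embryo and for its part in Hedgehog and Wnt signalling.

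Library totals ranged from 32187040 to 33837949 reads counted in genes, so that 3 reads equalled 0.0887 to 0.0932 CPM (counts scaled to a common library total). In WT, replicate 2 stood apart: the chi-square per gene against the other WT replicates was 16.4 and 15.1, whereas it was 5.24 to 6.88 in all other pairs of the same genotype. *Sirt6* had 487, 402 and 472 reads in WT, 424, 389 and 364 in *Atm-/-*, and 4, 5 and 7 in *Sirt6-/-*. The whole-gene count of *Atm* was higher in the libraries labelled *Atm-/-* (3768, 3564 and 3443 reads) than in WT (1536, 1617 and 1627), and so does not check that label. In what follows *Atm-/-* stands for the libraries labelled so. *Trp53*, the gene of p53, had 7108, 7102 and 6563 reads in WT, 806, 946 and 928 in the libraries labelled *Atm-/-*, and 9081, 9127 and 9218 in *Sirt6-/-*. All 10 fibroblast markers had reads in WT and *Sirt6-/-*, and 9 of 10 in *Atm-/-*, where *Lum* was at 0. *Lum* had only 10, 5 and 5 reads in WT. *Thy1* had 941, 590 and 785 reads in WT, 2874, 3200 and 2970 in *Atm-/-*, and 1, 33 and 12 in *Sirt6-/-*. The sum of the 10 markers was 27600 to 30900 CPM in WT, 8750 to 9000 in *Atm-/-* and 18600 to 19100 in *Sirt6-/-*. In mean CPM, *Col1a2*, *Pdgfrb* and *Dcn* were higher in *Sirt6-/-* than in WT, while *Col1a1*, *Col3a1*, *Pdgfra*, *Thy1*, *Vim* and *Fn1* were lower. The sum of 7 neural markers was 4.05 to 4.66 CPM in WT, 89.6 to 99.0 in *Atm-/-* and 77.9 to 86.0 in *Sirt6-/-*, made up mostly of *Map2* and *Tubb3*. *Rbfox3* and *Snap25* were at 0 in WT, *Gfap* and *Rbfox3* in *Atm-/-*, and *Snap25* in *Sirt6-/-*. The sums in WT, *Atm-/-* and *Sirt6-/-* were 24.4 to 28.6, 47.2 to 51.5 and 18.2 to 23.6 CPM for 8 epithelial markers. They were 3.13 to 5.13, 9.81 to 12.5 and 0.645 to 0.986 CPM for 6 endothelial markers, and 1.45 to 2.97, 2.05 to 2.84 and 0.657 to 1.35 CPM for 6 skeletal muscle markers. *Emcn* and *Cldn5* were at 0 in WT, *Tek* and *Emcn* in *Atm-/-*, and *Cldn5* in *Sirt6-/-*. The leukocyte marker *Csf1r* had 252, 231 and 247 reads in WT, 21, 23 and 30 in *Atm-/-*, and 62, 96 and 50 in *Sirt6-/-*, and *Cd68* had 121, 104 and 93, 98, 102 and 83, and 47, 38 and 68. *Ptprc* had 0 to 6 reads in a library, *Adgre1* 0 to 4, and *Cd3e* was at 0. *Myog*, *Myf5* and *Actn2* were at 0 in every library. These marker levels moved with the genotype, and their part in the results that follow was not tested.

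The main difference among the members was in which glypican predominated: *Gpc3* in WT, *Gpc1* in the libraries labelled *Atm-/-*, and *Gpc4* in *Sirt6-/-*. *Sdc4* was the highest syndecan in every genotype, while *Sdc2* and *Sdc3* were higher in both mutants than in WT. *Gpc5* had no read in any library. Differences were tested with edgeR's quasi-likelihood method on the counts, with Benjamini-Hochberg adjustment over all genes tested in a comparison and an adjusted p under 0.05 as the threshold. Of the 10 members, 9 passed the filter on low counts in each comparison. In *Atm-/-* against WT, 7 members were significantly higher and 2 significantly lower, where 68.4% of all 13283 genes tested were significant. In *Sirt6-/-* against WT, 7 were higher, 1 was lower and 1 was not significant, where 76.6% of 13206 genes tested were significant. In *Sirt6-/-* against *Atm-/-*, 5 were higher, 3 were lower and 1 was not significant, where 75.8% of 13460 were significant. By direction, 34.7% of genes were higher and 33.6% lower in the first comparison, 39.2% and 37.4% in the second, and 37.8% and 38.0% in the last. Members passed with at least a 2-fold change in 6, 6 and 4 cases, against 22.5%, 29.3% and 25.5% of genes. On TMM-normalized CPM the libraries of the compared genotypes did not overlap for 9, 8 and 8 members, against 72.8%, 79.1% and 78.1% of genes. Since most genes tested were significant, the number of significant members is not read as particular to them, and their sizes and order are described here. The median log2 fold change of the tested members was 1.53, 1.12 and 0.40, beside 0.02, 0.02 and -0.002 over all genes tested. *Gpc2* passed the filter only through the mutant in both comparisons with WT. *Gpc3* passed only through WT in *Sirt6-/-* against WT and only through *Atm-/-* in *Sirt6-/-* against *Atm-/-*. These counts and medians, and the p-values of *Gpc2* and *Gpc3* in those comparisons, are therefore descriptive. Both comparisons with WT use the same 3 WT libraries. In bulk RNA, fewer cells with a transcript and less RNA per cell cannot be told apart. With library totals in place of TMM normalization the median log2 fold change of all genes in *Atm-/-* against WT moved by 0.164, and the share of significant genes that were higher went from 50.8% to 64.9%. With library totals 46.3% of genes were higher and 25.0% lower in this comparison, 43.9% and 32.7% in *Sirt6-/-* against WT, and 34.8% and 41.2% in *Sirt6-/-* against *Atm-/-*.

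**Figure D1:**
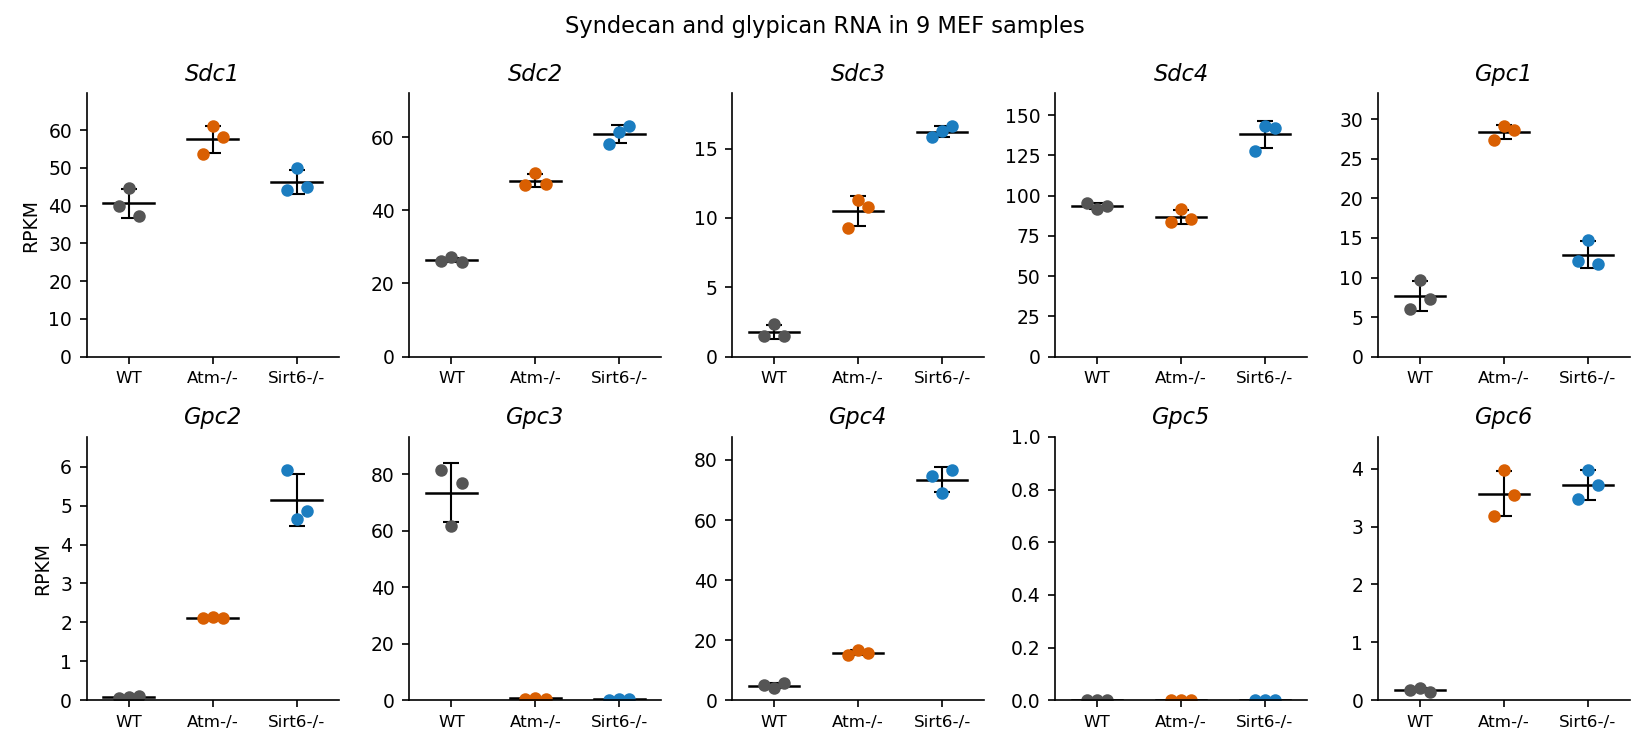
RPKM (reads scaled by listed transcript length and by the read total of the library) of the 10 members in each of 9 MEF libraries. Points are libraries, and the long bar and whiskers are the mean and SD of 3 libraries of a genotype; each panel has its own axis from 0. *Gpc3* is high only in WT (mean 73.5 RPKM), *Gpc4* is highest in *Sirt6-/-* (73.5 RPKM), *Gpc1* is highest in *Atm-/-* (28.4 RPKM), and *Gpc5* lies at 0 in all libraries.

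The sequences before the transcription start are shown for the member that fell most (*Gpc3*), the syndecan that rose most (*Sdc3*) and the member without a read (*Gpc5*). They are from RefSeq on GRCm38.p6, which matched 7 of the 10 members, and are written 5′ to 3′ on the strand of the gene with GC boxes (GGGCGG or its reverse complement CCGCCC) in capitals. The *Gpc3* stretch is chrX:52613975-52614224 on the minus strand, the *Sdc3* stretch chr4:130792287-130792536 on the plus strand, and the *Gpc5* stretch chr14:115091965-115092200 on the plus strand.
Gpc3: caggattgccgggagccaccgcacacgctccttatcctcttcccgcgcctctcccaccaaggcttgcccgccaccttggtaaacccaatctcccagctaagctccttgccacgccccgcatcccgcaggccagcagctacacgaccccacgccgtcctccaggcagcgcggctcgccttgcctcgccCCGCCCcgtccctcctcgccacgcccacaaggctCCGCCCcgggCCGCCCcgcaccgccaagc
Sdc3: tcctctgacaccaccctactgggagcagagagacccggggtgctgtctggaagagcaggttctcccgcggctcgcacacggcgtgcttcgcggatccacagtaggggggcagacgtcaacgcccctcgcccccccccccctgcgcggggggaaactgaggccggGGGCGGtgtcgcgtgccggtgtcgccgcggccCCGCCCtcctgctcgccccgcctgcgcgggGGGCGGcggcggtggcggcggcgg
Gpc5: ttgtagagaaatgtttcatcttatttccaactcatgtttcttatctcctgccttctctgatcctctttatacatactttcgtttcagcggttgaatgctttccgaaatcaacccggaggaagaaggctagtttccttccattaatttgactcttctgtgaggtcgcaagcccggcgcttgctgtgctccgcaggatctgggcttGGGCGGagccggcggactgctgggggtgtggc
In the 250 bases before the start, *Gpc3* and *Sdc3* had 3 GC boxes each and *Gpc5* had 1. All 7 members with a sequence had at least 1 GC box, as did 32.7% of 32851 RefSeq windows of that length. CpG dinucleotides numbered 25 in *Gpc3*, 32 in *Sdc3* and 12 in *Gpc5*, and 10 to 32 over the 7 members, against a median of 6 over all windows. TATAAA or its reverse TTTATA was present in 1 of the 7, *Gpc5*, and in 12.4% of all windows. The E-box CACGTG was in 0 of the 7 and in 6.02% of windows. *Gpc2*, *Gpc4*, *Sdc1* and *Sdc4* had 3, 1, 3 and 4 GC boxes. These counts used whole windows before a RefSeq start. The windows of *Sdc4* and *Gpc4* lie within the GENCODE span of the gene. Those of *Sdc1*, *Gpc2* and *Gpc5* overlap an annotated span of the gene in part. The *Gpc3* window lies within the span of another gene, *A630012P03Rik* (chromosome X from 52575843 to 52619047). That gene had 0 reads in every library. GC boxes were thus present in the windows of *Sdc4*, the highest member of WT, and of the silent *Gpc5* alike. A match to these letters is a description of the sequence and not of a bound site.

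Among the syndecans, *Sdc4* (chromosome 2 from 164424247 to 164443887, positions of GENCODE M21 on GRCm38, which is mm10, the build in the submitters' processing notes) encodes the focal adhesion member. It had 7930, 7489 and 7659 reads in WT, 6766, 7537 and 6815 in *Atm-/-*, and 10204, 11354 and 11720 in *Sirt6-/-*. The *Sirt6-/-* libraries lay above all others. Its level was 93.4 ± 1.79 RPKM in WT, 87.0 ± 4.38 in *Atm-/-* and 138 ± 8.33 in *Sirt6-/-* (mean ± SD, n = 3 in each). In *Sirt6-/-* it was higher than in WT with a log2 fold change of 0.47 (standard error, SE, 0.05, edgeR adjusted p = 8.72e-07), and higher than in *Atm-/-* with a log2 fold change of 0.72. In *Atm-/-* it was lower than in WT with a log2 fold change of -0.27 (SE 0.05, adjusted p = 0.000164), but the RPKM of these genotypes, unlike their TMM-normalized CPM, overlapped, and with library totals in place of TMM the value was -0.10 (adjusted p = 0.0677).

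*Sdc1* (chromosome 12 from 8771323 to 8793715), the syndecan best known from epithelia and plasma cells, had 4114, 4537 and 3796 reads in WT, 5427, 6212 and 5739 in *Atm-/-*, and 4362, 4936 and 4594 in *Sirt6-/-*. The *Atm-/-* libraries lay above all others, and those of WT and *Sirt6-/-* overlapped. The log2 fold change was 0.34 in *Atm-/-* against WT (SE 0.07, adjusted p = 0.000316). In *Sirt6-/-* against WT it was 0.11 (95% confidence interval -0.04 to 0.25, adjusted p = 0.170), and it passed the threshold without WT replicate 2 (0.17, adjusted p = 0.0128) and with library totals (0.20, adjusted p = 0.0164). *Sdc1* was lower in *Sirt6-/-* than in *Atm-/-*, by a log2 fold change of -0.25 (adjusted p = 0.000199), and was the only syndecan to be so.

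*Sdc2* (chromosome 15 from 32920723 to 33034935), a syndecan of mesenchymal cells, had 2923, 2986 and 2858 reads in WT, 5131, 5545 and 5044 in *Atm-/-*, and 6212, 6582 and 6981 in *Sirt6-/-*. The genotypes did not overlap, with WT lowest and *Sirt6-/-* highest. Levels were 26.4 ± 0.670, 48.1 ± 1.82 and 60.8 ± 2.57 RPKM in WT, *Atm-/-* and *Sirt6-/-*. *Sdc2* rose by a log2 fold change of 0.70 in *Atm-/-* (SE 0.05, adjusted p = 9.11e-09) and of 1.12 in *Sirt6-/-* (SE 0.05, adjusted p = 3.88e-11), both against WT. *Sirt6-/-* exceeded *Atm-/-* by 0.40 on the log2 scale (adjusted p = 7.76e-08).

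*Sdc3* (chromosome 4 from 130792537 to 130826319), the syndecan best known from the nervous system, took the same order with larger steps. It had 253, 389 and 250 reads in WT, 1526, 1876 and 1740 in *Atm-/-*, and 2543, 2612 and 2762 in *Sirt6-/-*. The lowest *Atm-/-* library held more reads than any WT library, and the lowest *Sirt6-/-* library more than any *Atm-/-* library. *Sdc3* was 5.24 times its WT level in *Atm-/-* (2.39 on the log2 scale, SE 0.14, adjusted p = 1.58e-09) and 8.54 times that level in *Sirt6-/-* (3.09, SE 0.13, adjusted p = 1.33e-11). WT replicate 2 was the highest WT library, and without it the log2 fold changes were 2.64 and 3.33. The mutants differed from each other by 0.69 on the log2 scale (adjusted p = 3.60e-09). The neural marker sum given above was higher in both mutants than in WT, as *Sdc3* was. Its 2 main genes differed in order between the mutants. *Map2* averaged 1.94, 82.4 and 52.1 CPM in WT, *Atm-/-* and *Sirt6-/-*. *Tubb3* averaged 1.87, 10.6 and 29.2 CPM, the order of *Sdc3*. A link between *Sdc3* and these markers was not tested. The antisense gene *Gm26716* covers 6.93% of the *Sdc3* exons and was not analysed here; whether counting used strand is not given in the sources used here, so its reads may be among those of *Sdc3*.

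Of the glypicans, *Gpc3* (chromosome X from 52272426 to 52613950), the gene mutated in the human Simpson-Golabi-Behmel overgrowth syndrome, differed most. It had 6265, 4652 and 5830 reads in WT, 31, 65 and 37 in *Atm-/-*, and 9, 20 and 26 in *Sirt6-/-*. In WT it was at 73.5 ± 10.4 RPKM, above every other member but *Sdc4*, while both mutants were below 1 RPKM (0.593 ± 0.235 and 0.246 ± 0.112). It was 138-fold lower in *Atm-/-* (log2 fold change -7.11, SE 0.16, adjusted p = 4.91e-14) and 314-fold lower in *Sirt6-/-* (log2 fold change -8.29, SE 0.17, adjusted p = 6.43e-15) than in WT. *Gpc3* passed the filter only through WT in the latter comparison and only through *Atm-/-* between the mutants, so those p-values are descriptive. Between the mutants the log2 fold change of *Sirt6-/-* against *Atm-/-* was -1.20 (SE 0.42, adjusted p = 0.0141), which rests on few reads. It did not pass without *Atm-/-* replicate 2 (-0.83, adjusted p = 0.127) or without *Sirt6-/-* replicate 1 (-0.88, adjusted p = 0.0794).

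*Gpc4* (chromosome X from 52053021 to 52165252), known for its part in growth factor signalling and as a synapse-promoting protein of astrocytes, went the other way. It had 399, 303 and 435 reads in WT, 1144, 1298 and 1178 in *Atm-/-*, and 5630, 5172 and 5971 in *Sirt6-/-*. The 3 genotypes did not overlap, and the mean of 73.5 ± 4.08 RPKM in *Sirt6-/-* compared with 4.87 ± 0.864 in WT and 15.8 ± 0.917 in *Atm-/-*. *Gpc4* was 2.90-fold higher in *Atm-/-* (log2 fold change 1.53, SE 0.11, adjusted p = 1.72e-08) and 14.2-fold higher in *Sirt6-/-* (log2 fold change 3.83, SE 0.10, adjusted p = 5.17e-14) than in WT. *Sirt6-/-* exceeded *Atm-/-* by a log2 fold change of 2.28 (SE 0.06, adjusted p = 9.77e-19).

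*Gpc1* (chromosome 1 from 92831645 to 92860779), a glypican of many adult tissues that binds fibroblast growth factors, was highest in *Atm-/-*. It had 723, 1143 and 864 reads in WT, 3212, 3442 and 3299 in *Atm-/-*, and 1395, 1699 and 1394 in *Sirt6-/-*. The genotypes did not overlap. *Gpc1* rose 3.31-fold in *Atm-/-* against WT (log2 fold change 1.73, SE 0.12, adjusted p = 8.04e-09) and 1.58-fold in *Sirt6-/-* against WT (log2 fold change 0.66, SE 0.14, adjusted p = 0.000452), and was 2.11-fold lower in *Sirt6-/-* than in *Atm-/-* (adjusted p = 8.08e-12). Without WT replicate 2, the highest WT library, the log2 fold changes against WT were 1.93 and 0.85. *Ankmy1*, on the opposite strand, overlaps 18.9% of the *Gpc1* exons and had 0 to 6 reads.

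*Gpc6* (chromosome 14 from 116925315 to 117976544), which promotes growth of developing bone and gut, had 39, 49 and 31 reads in WT, 714, 899 and 777 in *Atm-/-*, and 762, 871 and 844 in *Sirt6-/-*. Both mutants lay above WT, and they overlapped each other. Against WT it rose by 4.19 on the log2 scale in *Atm-/-* (SE 0.16, adjusted p = 1.52e-11), which is 18.2-fold, and by 4.32 in *Sirt6-/-* (SE 0.15, adjusted p = 2.30e-12). *Sirt6-/-* against *Atm-/-* gave a log2 fold change of 0.12 (95% confidence interval -0.06 to 0.30, adjusted p = 0.219). *Gpc2* (chromosome 5 from 138273655 to 138280005), a glypican of the developing nervous system, had 5, 6 and 9 reads in WT, 175, 179 and 171 in *Atm-/-*, and 481, 379 and 409 in *Sirt6-/-*. The genotypes did not overlap, and the log2 fold changes against WT were 4.55 (SE 0.29, adjusted p = 3.46e-09) and 5.91 (SE 0.24, adjusted p = 1.24e-11), with 1.34 between the mutants (adjusted p = 7.40e-09). Against WT it passed the filter only through the mutant, so the p-values against WT are descriptive. *Gpc2* stayed low on the RPKM scale in all genotypes, at 0.0794 ± 0.0252, 2.12 ± 0.0159 and 5.15 ± 0.671 in WT, *Atm-/-* and *Sirt6-/-*. Of its exons 55.6% are shared with *Gm43720* on the same strand, which was not analysed here, so the *Gpc2* count is uncertain. *Gpc5* (chromosome 14 from 115092215 to 116525179) had 0 reads among 296385680 in the 9 libraries, where 3 reads in a library equal 0.0307 to 0.0322 RPKM.

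**Figure D2:**
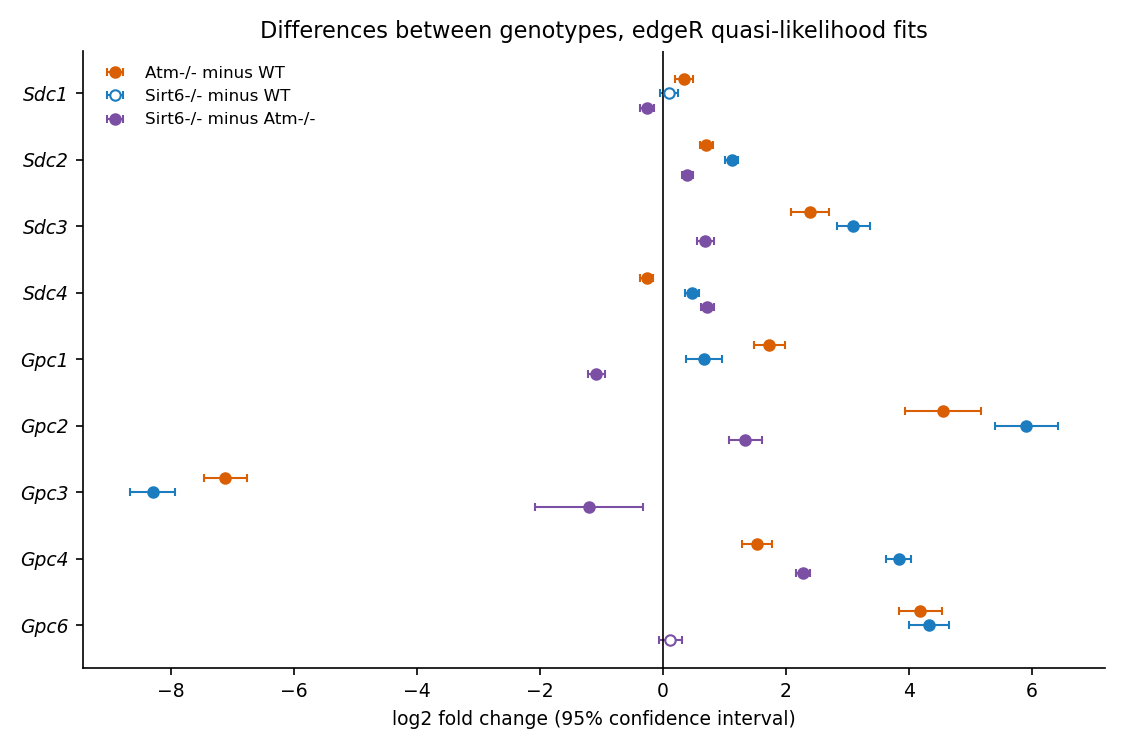
Log2 fold changes of the 9 tested members in 3 comparisons of genotypes, with 95% confidence intervals from edgeR's quasi-likelihood fits; filled points have an adjusted p under 0.05 and open points do not. *Gpc3* is the lone member far below 0 against WT (-7.11 and -8.29), *Gpc2* and *Gpc6* have the highest values, and the *Sdc4* value in *Atm-/-* (-0.27) is not significant with library totals.

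Across the 10 members, 15 of the 18 neighbouring pairs of genotypes in order of mean RPKM (*Gpc5* left out) did not overlap. The 3 that overlapped were WT and *Sirt6-/-* for *Sdc1*, *Atm-/-* and WT for *Sdc4*, and *Atm-/-* and *Sirt6-/-* for *Gpc6*. Against WT, 5 members were higher in both mutants with WT lowest and *Sirt6-/-* highest in mean RPKM: *Sdc2*, *Sdc3*, *Gpc2*, *Gpc4* and *Gpc6*. Transcripts of different members shared no run longer than 29 bases among syndecans and 17 among glypicans.

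The RPKM summed over a family gave its level as a whole. The syndecan sum was 162, 166 and 158 RPKM in WT, 194, 214 and 202 in *Atm-/-*, and 246, 271 and 267 in *Sirt6-/-*. It was 1.25-fold higher in *Atm-/-* and 1.61-fold higher in *Sirt6-/-* than in WT, with no overlap (exact permutation test, two-sided, p = 0.1 for each, which is the smallest value that 3 against 3 samples allow). On TMM-normalized CPM per kilobase these ratios were 1.12 and 1.51. *Sdc4* made up 57.6 ± 2.08% of the syndecan sum in WT, 42.8 ± 0.309% in *Atm-/-* and 52.7 ± 0.627% in *Sirt6-/-*. The share of *Sdc3* was 1.10 ± 0.278%, 5.15 ± 0.300% and 6.22 ± 0.208% in the same order.

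The glypican sum was 92.9, 75.6 and 90.3 RPKM in WT, 48.1, 52.8 and 50.6 in *Atm-/-*, and 96.5, 92.6 and 97.4 in *Sirt6-/-*. *Atm-/-* lay below both other genotypes, at 0.585 times WT (exact permutation test, two-sided, p = 0.1), whereas *Sirt6-/-* overlapped WT at 1.11 times its mean (p = 0.2 in the same exact test). *Gpc3* held 85.0 ± 3.13% of the glypican sum in WT, 1.16 ± 0.409% in *Atm-/-* and 0.258 ± 0.117% in *Sirt6-/-*. In *Atm-/-* the share of *Gpc1* was 56.3 ± 1.09% and that of *Gpc4* 31.3 ± 0.406%. In *Sirt6-/-* the share of *Gpc4* was 76.9 ± 2.28% and that of *Gpc1* 13.5 ± 2.14%. In WT, *Gpc1* and *Gpc4* held 9.12 ± 3.29% and 5.62 ± 0.535%. The overlapping glypican sums of WT and *Sirt6-/-* were thus made up mostly of different genes. The ratio of the glypican to the syndecan sum was 0.533 ± 0.0665 in WT, 0.248 ± 0.00222 in *Atm-/-* and 0.366 ± 0.0250 in *Sirt6-/-*.

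**Figure D3:**
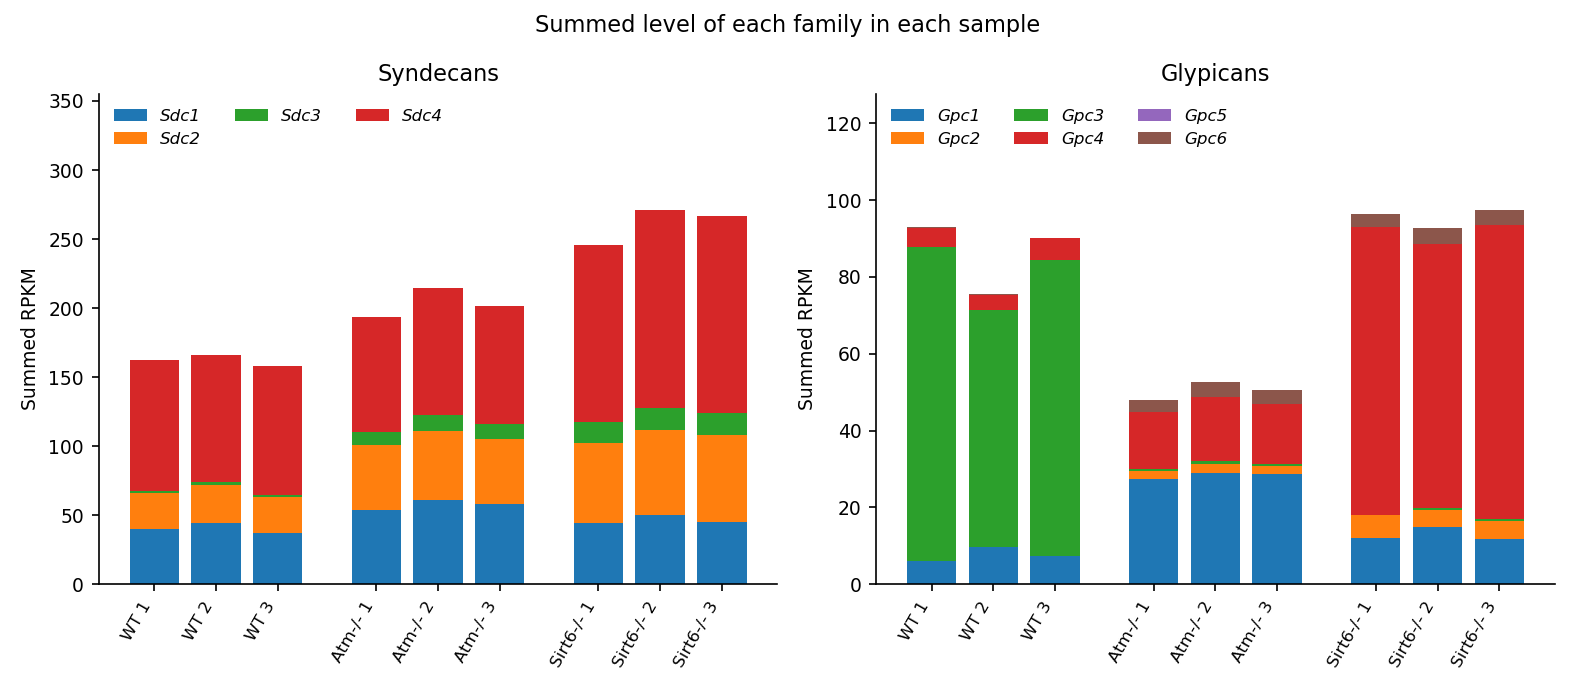
Stacked RPKM of the syndecans (left) and glypicans (right) in each library, by genotype and replicate, with axes from 0. The glypican bars change from mostly *Gpc3* in WT (85.0%) to mostly *Gpc1* in *Atm-/-* (56.3%) and mostly *Gpc4* in *Sirt6-/-* (76.9%), while *Sdc4* is the largest syndecan part in every bar.

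*Gpc3* and *Gpc4* are neighbours on chromosome X, with 107.2 kb between them and both on the minus strand, and moved in opposite directions in both mutants. Among genes within 500 kb of the pair, *Hs6st2*, a heparan sulfate 6-O-sulfotransferase, was lower in both mutants (log2 fold changes -0.87 and -0.62). *Phf6* was higher in both (1.01 and 0.71). *Hprt* was higher in *Atm-/-* (0.58, adjusted p = 1.19e-07), and its value in *Sirt6-/-* was 0.03 (adjusted p = 0.710). *C430049B03Rik* and *Plac1* were lower in *Atm-/-* and *Sirt6-/-*, with log2 fold changes of -2.62 and -2.13 and of -2.15 and -3.39. *Plac1* had only 2 to 126 reads in a library, so its values rest on few reads. The direction thus differed from gene to gene along the region. *Gpc5* and *Gpc6*, 400.1 kb apart on chromosome 14, differed likewise, with *Gpc5* silent beside a *Gpc6* that rose in both mutants.

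The genes that make, sulfate, trim, shed or anchor these proteoglycans were followed in 8 lists of 74 genes, of which 65 were tested. In *Atm-/-* against WT 21 were higher, 28 lower and 16 not significant, with a median log2 fold change of -0.14. In *Sirt6-/-* against WT 31 were higher, 21 lower and 13 not significant, with a median of 0.14. Over all genes tested, 34.7% were higher and 33.6% lower in *Atm-/-* against WT, and 39.2% and 37.4% in *Sirt6-/-* against WT. As most genes were significant, the counts here and in the lists below are not read as particular to these genes. *Extl1*, *Ndst4*, *Hs6st3*, *Hs3st2*, *Hs3st3a1*, *Hs3st4*, *Hs3st6*, *Hpse2* and *Mmp7* had too few reads to be tested in any comparison. In *Atm-/-* against WT *Xylt1*, *Ndst3* and *Hs3st5* passed the filter only through *Atm-/-*. In *Sirt6-/-* against WT the same 3 genes passed only through *Sirt6-/-*, and *Hs3st1*, *Hs3st3b1* and *Sdcbp2* only through WT. The counts of their lists, and the p-values of these genes in these comparisons, are descriptive.

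The chain is started on a linker of 4 sugars. Of 7 linker enzymes, 3 were higher and 1 lower in *Atm-/-*, and 5 were higher and 0 lower in *Sirt6-/-*. *Pxylp1*, the xylose phosphatase of the linker, had 224, 287 and 149 reads in WT, 693, 769 and 524 in *Atm-/-*, and 945, 1033 and 966 in *Sirt6-/-* (log2 fold changes 1.45 and 2.10). *B3gat3*, which adds the glucuronic acid of the linker, rose by 0.33 and 0.77. *Fam20b*, the xylose kinase, was lower in *Atm-/-* (-0.22), which was not significant with library totals (-0.05, adjusted p = 0.425). Genes of the polymerisation list moved by small amounts. *Ext1* rose by 0.24 in *Atm-/-* and 0.38 in *Sirt6-/-*, *Extl3* was higher in *Sirt6-/-* (0.38), and *Ext2* was lower in *Atm-/-* (-0.31) and higher in *Sirt6-/-* (0.29). *Extl2* was lower in *Atm-/-* (-0.30), but not significantly with library totals (-0.13, adjusted p = 0.106). Of 4 polymerisation genes tested, 1 was higher and 2 lower in *Atm-/-*, and 3 were higher and 0 lower in *Sirt6-/-*.

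Modification enzymes set the sulfation pattern. Of 10 tested, 3 were higher and 5 lower in *Atm-/-*, and 3 were higher and 7 lower in *Sirt6-/-*. *Hs3st1*, the 3-O-sulfotransferase that makes the antithrombin-binding site, had 1080, 1104 and 1130 reads in WT, 476, 707 and 518 in *Atm-/-*, and 2, 9 and 2 in *Sirt6-/-*. The *Sirt6-/-* value (log2 fold change -8.01, adjusted p = 1.25e-13) rests on those few reads. *Ndst3*, an N-deacetylase and N-sulfotransferase, had 4, 10 and 6 reads in WT, 316, 332 and 253 in *Atm-/-*, and 160, 197 and 163 in *Sirt6-/-*, which are log2 fold changes of 5.33 and 4.62 against a WT level under the filter's minimum. *Hs6st1*, a 6-O-sulfotransferase, was lower in *Atm-/-* and *Sirt6-/-* (-1.91 and -1.48), and *Glce*, the glucuronic acid epimerase, was lower as well (-1.60 and -0.44). *Hs3st3b1*, another 3-O-sulfotransferase, went in opposite directions, with 29, 24 and 29 reads in WT, 140, 121 and 135 in *Atm-/-* (2.13), and 0, 2 and 3 in *Sirt6-/-* (-3.99, adjusted p = 4.93e-05). *Ndst2* rose by 0.24 in *Sirt6-/-*. *Hs3st5*, named after its values were seen, had 0 reads in WT, 18, 34 and 15 in *Atm-/-*, and 44, 48 and 54 in *Sirt6-/-*. Against a floor of 3 reads in each WT library it was at least 7.55-fold higher in *Atm-/-* and at least 16.6-fold higher in *Sirt6-/-*. The list medians, -0.30 and -0.47, were the same with *Hs3st5* at these bounds. They could not have changed, since the bounds and the fitted values both lie above the medians.

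Of 8 genes that supply sugar and sulfate donors, 2 were higher and 5 lower in *Atm-/-*, and 1 was higher and 4 lower in *Sirt6-/-*. *Papss2*, a synthase of the sulfate donor PAPS, had 2152, 1830 and 1853 reads in WT, 365, 330 and 369 in *Atm-/-*, and 1314, 1089 and 1426 in *Sirt6-/-* (log2 fold changes -2.59 and -0.66), while its paralogue *Papss1* rose by 0.40 and 0.33. *Slc35d1*, a nucleotide sugar transporter, rose by 0.50 in *Atm-/-*. *Ugdh*, the UDP-glucose dehydrogenase, was lower in both mutants (-0.50 and -0.44). *Ugp2*, which makes UDP-glucose, was lower in *Sirt6-/-* (-0.60) and in *Atm-/-* (-0.24), the latter not significantly with library totals (-0.08, adjusted p = 0.136).

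Of 9 genes tested that edit or break down the chain, 2 were higher and 3 lower in *Atm-/-*, and 6 were higher and 1 lower in *Sirt6-/-*. The extracellular 6-O-endosulfatases did not move together. *Sulf2* had 4006, 3123 and 3491 reads in WT, 1368, 1402 and 1402 in *Atm-/-*, and 432, 543 and 489 in *Sirt6-/-*, lower in both mutants (-1.48 and -2.91). *Sulf1* had 1331, 1143 and 1089 reads in WT, 551, 387 and 506 in *Atm-/-*, and 2258, 2125 and 2531 in *Sirt6-/-*. It was thus lower in *Atm-/-* (-1.44) and higher in *Sirt6-/-* (0.90), and the mutants differed from each other by a log2 fold change of 2.33 (adjusted p = 6.67e-15). *Hpse*, the heparanase that cuts the chain, had 45, 40 and 32 reads in WT, 301, 359 and 412 in *Atm-/-*, and 622, 620 and 685 in *Sirt6-/-* (3.06 and 3.98). *Ids*, the lysosomal iduronate sulfatase, rose by 1.16 and 0.98.

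Among 13 tested genes for shedding and release of core proteins, 6 were higher and 5 lower in *Atm-/-*, and 7 were higher and 4 lower in *Sirt6-/-*. *Mmp16*, a membrane metalloproteinase, had 18, 21 and 15 reads in WT, 493, 428 and 480 in *Atm-/-*, and 1651, 1702 and 1636 in *Sirt6-/-* (log2 fold changes 4.55 and 6.47). *Mmp3*, the matrix metalloproteinase stromelysin, had 51, 77 and 26 reads in WT, 1863, 2308 and 1904 in *Atm-/-*, and 91, 124 and 110 in *Sirt6-/-*. It was far higher in *Atm-/-* than in *Sirt6-/-* (*Sirt6-/-* against *Atm-/-*: -4.15, adjusted p = 2.62e-18). *Mmp2*, a gelatinase, rose by 0.42 in *Atm-/-* and 2.59 in *Sirt6-/-*, and *Mmp14* was lower in both (-1.26 and -0.77). *Timp3*, a metalloproteinase inhibitor that binds heparan sulfate, had 139244, 126585 and 133120 reads in WT, 22890, 24088 and 22106 in *Atm-/-*, and 13282, 13306 and 13343 in *Sirt6-/-* (-2.67 and -3.37). *Adamts1*, a secreted metalloproteinase, was lower in *Atm-/-* (-2.40), and its value in *Sirt6-/-* was 0.18 (adjusted p = 0.0985).

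Of 8 cytoplasmic partners of syndecans, 2 were higher and 4 lower in each mutant. *Prkca*, the kinase that syndecan-4 activates, had 1358, 1478 and 1420 reads in WT, 2869, 2953 and 2783 in *Atm-/-*, and 4718, 5117 and 4752 in *Sirt6-/-* (0.88 and 1.72). *Sdcbp*, the gene of syntenin, which binds syndecan tails through its PDZ domains, rose by 0.36 and 0.85. *Tiam1*, a Rac exchange factor, was lower (-1.71 and -0.90), as was *Cask*, a scaffold of the syndecan tail (-0.45 and -0.51). Of the 6 other heparan sulfate proteoglycans, 2 were higher and 3 lower in *Atm-/-*, and 4 were higher and 1 lower in *Sirt6-/-*. *Col18a1*, the collagen of basement membranes that gives endostatin, had 90, 106 and 99 reads in WT, 1227, 1185 and 1340 in *Atm-/-*, and 1342, 1280 and 1522 in *Sirt6-/-* (3.53 and 3.76). *Agrn*, the gene of agrin, rose by 1.71 in *Sirt6-/-* and *Cd44* by 0.57 in *Atm-/-*. *Hspg2*, the gene of perlecan, was lower in *Atm-/-* (-0.87) and higher in *Sirt6-/-* (0.38, adjusted p = 7.10e-07), and *Nrp1* was lower in both mutants (-0.62 and -0.76).

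**Figure D4:**
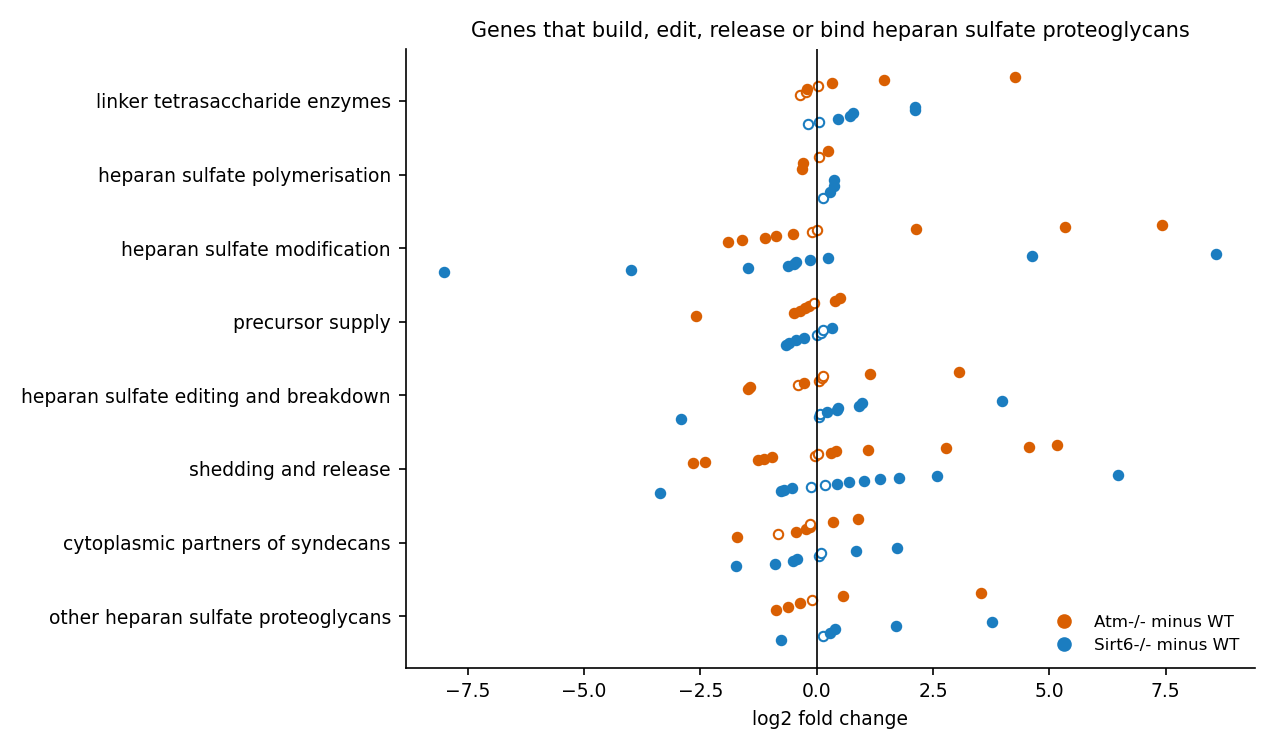
Log2 fold changes of the 65 tested genes of 8 heparan sulfate lists, in *Atm-/-* and in *Sirt6-/-* against WT (edgeR, the same WT libraries in both); filled points have an adjusted p under 0.05. Polymerisation genes lie near 0, from -0.31 to 0.38, and genes for modification and for shedding and release reach far to both sides; the rightmost modification points are *Hs3st5*, which has 0 reads in WT and a position that depends on the prior count.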

How the data were processed

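RNA-Seq data of 9 MEF libraries were used. Per the labels, mRNA was enriched with oligo(dT) beads and sequenced on Illumina instruments; strand is not stated. For each library the authors deposited whole-number read counts of 24341 genes, not normalized, and RPKM made from those counts and a listed transcript length. The submitters' processing notes name the build mm10; the aligner, counter and annotation are not given in the sources used here.

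Counts were fitted for each pair of genotypes with edgeR 4.0.16 in R 4.3.3 (filterByExpr with a minimum count of 10, TMM, glmQLFit, prior count 0.125, glmQLFTest, two-sided). Standard errors came from the F statistic. Deposited RPKM served for levels between genes and for sums, tested with exact permutation in SciPy 1.17.1. Promoter windows came from RefSeq GRCm38.p6. Only the printed stretches were cut, to bases outside the RefSeq and GENCODE span of their own gene.

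The members and the gene lists were chosen with earlier results of these data known. Named from each list were the up to 2 largest rises and falls against WT that passed the threshold, with libraries of the genotypes not overlapping and an average log2 CPM of 1 or more. In the text, further genes outside this rule are those near *Gpc3* on chromosome X, the genotype checks, markers, *Hs3st5*, *Notum*, and genes that passed the filter through 1 genotype only (*Xylt1*, *Sdcbp2*). A sum over leukocyte markers is not reported here.

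No pair of libraries held identical counts. As nothing says that replicates were separate cultures or embryos, p-values measure only the spread between these libraries. In simulated counts 200 of 200 genes changed 2-fold were recovered in each comparison, with 9, 9 and 10 false calls. Only well-counted genes were changed there, with equal numbers of rises and falls. All other genes were left unchanged, and every gene had the same set spread. The simulation therefore does not cover members with few reads, or data in which most genes differ. Alternatives were DESeq2 1.42.0 (size factors and Wald test), library totals, other filters, all 9 libraries in a joint fit, a replicate block, a 2-fold threshold, and each library left out in turn.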

Additional observations from a re-analysis of the deposited data

How the results depend on the processing

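No member changed direction under any alternative run. Of the member log2 fold changes recomputed, 342 kept their side of the threshold, 3 lost it and 2 gained it, all 5 in *Sdc4*, *Gpc3* or *Sdc1* and given with those genes above. Library totals left 1 member significantly lower in *Atm-/-* against WT, as did a 2-fold threshold (1). A 2-fold threshold left 2 members higher in *Sirt6-/-* against *Atm-/-*. Requiring at least 10 counts in every sample left 0 members lower in *Sirt6-/-* against WT, since *Gpc3*, with 9 reads in a library, was then not tested. With each library left out, *Sirt6-/-* against WT had 7 to 8 members higher and 1 lower, *Sirt6-/-* against *Atm-/-* had 5 higher and 2 to 3 lower, and *Atm-/-* against WT had 7 higher and 2 lower in every case. The syndecan sum then ranged from 1.22 to 1.28 times WT in *Atm-/-*, 1.58 to 1.66 times WT in *Sirt6-/-* and 1.26 to 1.32 for *Sirt6-/-* over *Atm-/-*. The glypican sum ranged from 0.551 to 0.608, 1.04 to 1.15 and 1.85 to 1.94 in the same order. On TMM-normalized CPM per kilobase the syndecan ratios against WT were 1.12 and 1.51. With library totals, 0 linker genes were lower, 2 polymerisation genes higher and 1 lower, 3 precursor genes lower and 2 cytoplasmic partners lower in *Atm-/-*, and 2 precursor genes were higher in *Sirt6-/-*; the cause was not tested.

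Libraries with the same replicate number did not deviate together (correlation of deviations -0.0771 to 0.145 in 9 pairs, against -0.162 to 0.127 in 18 pairs of different numbers), so the numbers do not pair the libraries. With the replicate number as a block, 7 members were higher and 2 lower in *Atm-/-* against WT, 7 and 1 in *Sirt6-/-* against WT, and 5 and 3 in *Sirt6-/-* against *Atm-/-*, and no member changed its call. Depth limits *Gpc5*, *Gpc2* and *Gpc6* in WT, and *Gpc3* in the mutants, whose values rest on 0 to 65 reads in a library.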

Other observations

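Among genes with reads in a genotype, the mean RPKM of *Sdc4* lay above that of 94.4% in *Atm-/-* and 97.0% in *Sirt6-/-*. *Gpc3* lay above 93.2% of genes in WT, 30.1% in *Atm-/-* and 23.7% in *Sirt6-/-*, and *Gpc4* above 48.2%, 69.8% and 93.6%.

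Directly between the mutants, 40 of the 65 tested genes of the heparan sulfate lists were higher and 16 lower in *Sirt6-/-* than in *Atm-/-*, with a median log2 fold change of 0.29. Over all genes tested 37.8% were higher and 38.0% lower, or 34.8% and 41.2% with library totals. All 4 polymerisation genes tested were higher in *Sirt6-/-*, with a median log2 fold change of 0.36, though *Ext1* was not with library totals (0.06, adjusted p = 0.142). Of the 13 shedding genes, 9 were higher and 4 lower. *Notum*, a gene of the shedding and release list, was named after its values were seen. It had 32, 69 and 37 reads in WT, 104, 133 and 91 in *Atm-/-*, and 141, 192 and 154 in *Sirt6-/-*. The log2 fold changes against WT were 1.11 and 1.76 (edgeR adjusted p = 0.00413 and 4.35e-05).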
